A study of Homo sapiens with 3 samples.

Results

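The promoter contacts of 7 genes around the muscle transcription factors MEF2 and SRF were examined in cardiomyocytes derived from human embryonic stem cells (hESC-CMs): MEF2A, MEF2C, MEF2D, SRF, MYOCD, HOPX and SMYD1. A promoter fragment was a HindIII fragment that the calls give as the captured end and that holds an annotated transcript start of one of these genes, and every call with such a fragment at either end was taken. 6 of the 7 genes had 1 promoter fragment each, so that 6 of 19075 promoter fragments and 94 of 200587 contacts in the data set were theirs. MEF2A had none by this rule. Its 18 annotated starts (GENCODE v44) lay on fragments that were listed only as the interacting end. The study, whose capture followed an Ensembl annotation, lists a promoter fragment upstream of these starts under the name MEF2A. That fragment may be the captured MEF2A promoter. It is described separately, and its 48 contacts are not among the 94.

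The data were promoter capture Hi-C (PCHi-C) calls, in which chromatin is cross-linked, cut and religated, and the ligation products that carry a promoter are captured and sequenced. All cells were of the line WA09 (H9), an established human embryonic stem cell line, differentiated with a commercial kit, enriched for cardiomyocytes in lactate medium without glucose and fixed untreated. There were 3 samples, labelled biological replicates, of this 1 condition, so there was no undifferentiated or treated group to compare with, and whether the replicates came from separate differentiations is not stated. The labels give a purity check on MYH7 and TNNT2, which cannot be repeated here because contacts of DNA carry no expression level.

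Each call is a pair of fragments with a CHiCAGO score, which grows as a pair is ligated more often than is expected at its distance and noise level. Pairs that scored under 5 were not listed, so an absent contact cannot be told from a weak one, and read counts and depth were not analysed here. The total number of contacts listed was 112473, 109731 and 110740 in replicates 1, 2 and 3. A contact is here an unordered pair of fragments, and distances are between fragment midpoints. Errors are SDs between the 3 replicates.

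MEF2 proteins and SRF are MADS-box transcription factors, which bind short A and T rich sites in the control regions of muscle genes. MEF2 factors bind the MEF2 motif, and SRF binds the CArG box. Myocardin, encoded by MYOCD, does not bind DNA itself but acts as a strong coactivator of SRF in cardiac and smooth muscle. HOPX is a small homeodomain protein that does not bind DNA and is known to act on SRF, and SMYD1 is a muscle histone methyltransferase and a known target of MEF2C, so that neither is a MEF2, SRF or myocardin protein by sequence.

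The sequences of the promoter and of the interacting fragments that the values below turn on were read from GRCh37. The CArG box, the MEF2 motif and GATAA (or TTATC on the other strand) were searched on both strands, and all of the motifs may overlap one another. RefSeq promoters (GRCh38.p14 entries, matched exactly to 1 place in GRCh37) were found for 6 of the genes, in 16 entries, and a window of 250 bases before to 50 bases after each start was searched. The SRF promoter held 2 CArG boxes, which began 30 and 10 bases before the start, whereas 1.29% of 35116 promoters held any. The MEF2A promoter with its start at 100106189 held a MEF2 motif that began 23 bases before the start, which 2.99% of promoters held. A MEF2C entry with its start at 88120161, outside the promoter fragment, held another, which began 175 bases before the start. Of the 16 entries, 1 held a CArG box and 2 a MEF2 motif, and further entries of SRF and MEF2A held neither. The SMYD1 promoter held none of the 3 motifs. The first line gives the 250 bases before the SRF start, chr6:43138757-43139006, with the CArG boxes in capitals, and the second the MEF2 motif of MEF2A in capitals with 10 bases on each side, chr15:100106156-100106185, both on the + strand.
SRF promoter: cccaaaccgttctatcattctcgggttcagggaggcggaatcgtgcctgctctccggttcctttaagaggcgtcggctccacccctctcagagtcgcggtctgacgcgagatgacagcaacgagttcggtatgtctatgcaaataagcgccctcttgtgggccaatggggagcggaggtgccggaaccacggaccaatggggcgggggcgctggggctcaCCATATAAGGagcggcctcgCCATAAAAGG
MEF2A promoter site: ggcttgtctcCTAAAAATAGccccggtgtg

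The next sequences belong to far contacts of MYOCD and SMYD1. Given whole are the 2 shortest fragments that all 3 replicates called with the MYOCD promoter, chr17:12160628-12160790 (163 bp) and chr17:12149860-12150113 (254 bp), with GATAA or TTATC in capitals. The former held 1 match, as did 30.9% of 1407 interacting fragments within 10% of its length, and the latter held none. Given as 30-base windows with the motif in capitals are the MEF2 motif in the MYOCD contact with the highest mean score (chr17:12084105-12084134) and the CArG boxes in the THNSL2 fragment, the SMYD1 contact with the highest mean score (chr2:88465088-88465117 and chr2:88466179-88466208). All are on the + strand. Of interacting fragments of like length, 24.6% held a MEF2 motif in the MYOCD case and 38.4% a CArG box in the THNSL2 case.
MYOCD contact of 163 bp: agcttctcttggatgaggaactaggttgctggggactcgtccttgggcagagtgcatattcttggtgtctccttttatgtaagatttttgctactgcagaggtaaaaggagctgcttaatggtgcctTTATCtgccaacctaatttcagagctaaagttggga
MYOCD contact of 254 bp: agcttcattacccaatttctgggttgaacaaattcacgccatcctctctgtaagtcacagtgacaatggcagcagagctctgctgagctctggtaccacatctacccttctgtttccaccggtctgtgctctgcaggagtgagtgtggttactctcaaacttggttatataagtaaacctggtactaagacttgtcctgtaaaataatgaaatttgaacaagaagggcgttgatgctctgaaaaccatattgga
MYOCD contact with the highest mean score: atgaactcaaTTATTAATAAccactgcata
SMYD1 contact at THNSL2, first CArG box: ctctgaaactCCTAATTTGGggatgtaaac
SMYD1 contact at THNSL2, second CArG box: gtatttcattCCTTTTATGGctgaataatt
Of the 22 fragments that all 3 replicates called with MYOCD, 11 held a MEF2 motif and 5 a CArG box. The shares among interacting fragments of like length, added over the 22, come to 10.6 and 3.95, so both counts were near this background.

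The genes differed widely in how many contacts they had. Replicates 1, 2 and 3 listed 61, 50 and 64 contacts of the 6 promoter fragments, a mean of 58.3 ± 7.37 (SD, n = 3). Of the 94 contacts listed in any replicate, 32 were called in all 3, 17 in 2 and 45 in 1. The share called in all 3 was 34.0% (95% Wilson interval 25.3% to 44.1%, counting error only), beside 24% of all contacts. MYOCD decides that value, since 10 of the 57 contacts of the other 5 promoter fragments, or 17.5% (9.82% to 29.4%), were called in all 3. 4 of the 6 promoter fragments had at least 1 contact in all 3 replicates, as did 51.9% of all promoter fragments. Captured promoters without any call are not listed, so values over all promoter fragments cover only the 19075 with at least 1 contact. The median distance of the contacts was 486 kb, beside 716 kb over all contacts. MYOCD decides this order too, since the median without it was 1279 kb, above that of all contacts. 29 of the 94 contacts spanned more than 1 Mb on the same chromosome, beside 81118 of all 200587 contacts. A further 2 joined different chromosomes, 2.13% beside 3.87% of all contacts.

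**Figure D1:**
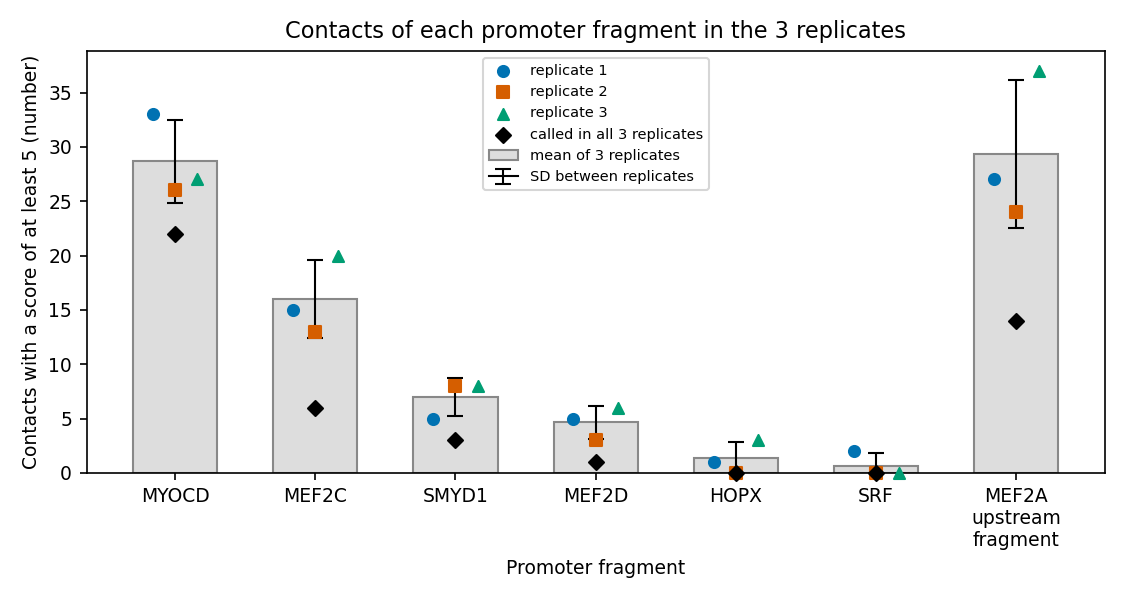
Number of contacts with a score of at least 5 (y axis) of each promoter fragment (x axis) in each of the 3 replicates, with bars for the mean, error bars for the SD (drawn no lower than 0) and black diamonds for contacts called in all 3. MYOCD had 26 to 33 contacts per replicate and 22 in all 3, MEF2C had 13 to 20 and 6, and HOPX and SRF had none in all 3.

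Of the interacting fragments of the 6 genes, 44 of 94 (46.8%) overlapped no annotated gene, beside 29.2% of all 116592 interacting fragments. 22 of 94 (23.4%) held a transcript start, beside 16.3%. The shares over all fragments count each interacting fragment once, however many contacts it had, whereas those of the 6 genes count contacts. The genes differed here too, since 27 of 37 MYOCD contacts lay in no gene, 14 of 28 MEF2C contacts lay in introns and 10 of 12 SMYD1 contacts held a transcript start. Most of the MEF2C introns were those of the non-coding RNA gene LINC01339. The difference between MYOCD and MEF2C thus depends in large part on counting non-coding RNA genes. Without MYOCD, 29.8% of the contacts lay in no gene.

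MYOCD had the most contacts of the 6 promoter fragments. Its promoter fragment, chr17:12568700-12575773 (7074 bp, gene on the + strand), holds 3 of its 5 annotated starts, and the other 2 lay on fragments that were not listed. Replicates 1, 2 and 3 listed 33, 26 and 27 contacts, 28.7 ± 3.79 (SD, n = 3), and 37 were listed in any replicate. Replicate 1 was the highest. 22 of the 37 were called in all 3 replicates, 59.5% (Wilson interval 43.5% to 73.7%), an interval above the 24% of all contacts. That 24% covers contacts of every distance and between chromosomes, so it is not a background of like distance. Over all promoter fragments, contacts called in all 3 replicates had a median distance of 395 kb, beside 716 kb for all contacts. The number of 22 was higher than that of 98.0% of promoter fragments, and the median over promoter fragments was 1. Many of these contacts lie next to each other, so they are not independent observations.

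32 of the 37 MYOCD contacts lay upstream, and none was beyond 1 Mb. Nearly all of the recurrent ones fell into 2 blocks of neighbouring fragments in the stretch without protein-coding genes between MAP2K4, which encodes a stress-activated protein kinase, and MYOCD. A block here joins fragments called in at least 2 replicates and separated by at most 20 kb. The farther block, chr17:12069246-12100999 (31.8 kb, 472 to 503 kb from the promoter), held 11 such fragments, of which 10 were called in all 3 replicates. The nearer block, chr17:12136825-12181456 (44.6 kb, 391 to 433 kb away), held 10 fragments, all called in all 3. No annotated gene overlapped the called fragments of either block. Between the blocks, only replicate 2 called chr17:12101000-12108974 (5.51), and only replicate 1 called chr17:12114265-12136824 (5.55). The merged calls listed both, with 7.62 and 6.82, and also chr17:12108975-12114264 with 6.61. These adjoining fragments fill the DNA between the blocks, so the merged calls left no gap there.

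The contact with the highest mean score lay in the farther block. Fragment chr17:12083828-12084761 (934 bp) scored 40.69, 42.79 and 46.18 in replicates 1, 2 and 3, 43.2 ± 2.77 (SD, n = 3), higher than the highest mean score of 98.7% of promoter fragments with a contact in all 3. Its scores lay above those of all other MYOCD contacts in all 3 replicates. The next, the 163-bp fragment of the nearer block printed above, scored 37.34, 32.96 and 34.13, 34.8 ± 2.27. The difference of 8.41 ± 4.52 (SD, n = 3) had the same direction in 3 of 3 replicates (exact sign-flip permutation test over replicates, two-sided p = 0.25, the smallest that 3 replicates allow). Both contacts were picked by their mean scores in these replicates, so the mean difference could only be positive. The test therefore gives no separate support for the order. In the calls on the merged replicates the order was the other way, with 33.96 for the former and 61.42 for the latter, and 4 MYOCD contacts in all scored above the former.

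In each replicate the neighbouring fragments scored below these 2. In the farther block, chr17:12084762-12086842 scored 27.42, 22.26 and 25.37, and chr17:12087801-12091388 scored 26.54, 22.5 and 26.67. In the nearer block the adjoining chr17:12160791-12164043 scored 24.07, 23.49 and 17.47, and the 254-bp fragment printed above scored 23.75, 17.87 and 18.09. At the outer edges scores were lower, with 5.81, 9.85 and 7.88 at chr17:12069246-12070199 and 13.22, 8.54 and 7.45 at chr17:12180930-12181456. No replicate was the highest in all of these fragments.

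**Figure D2:**
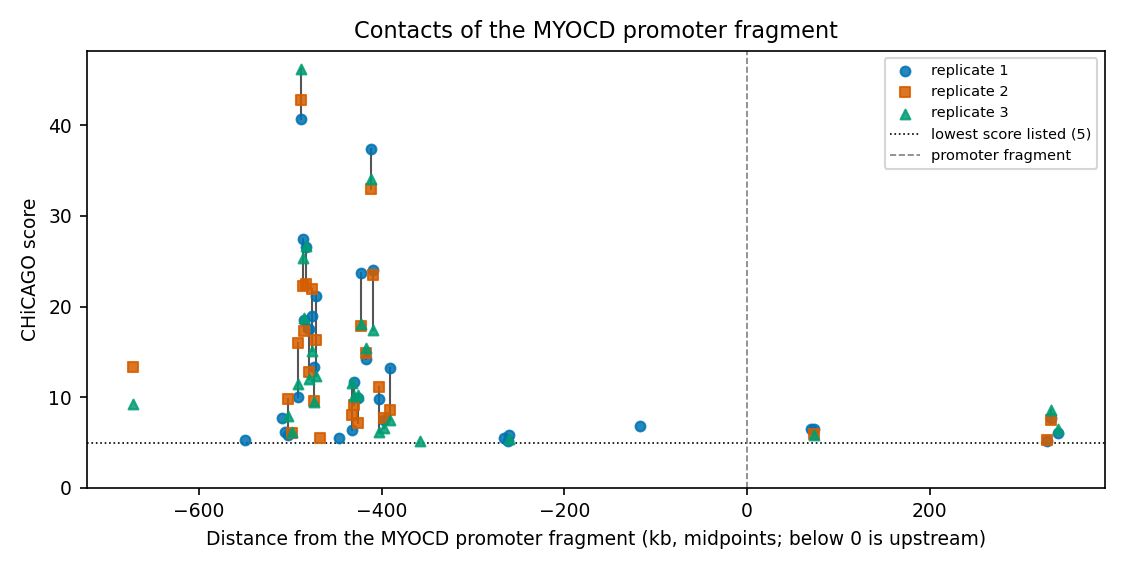
CHiCAGO score (y axis) of every MYOCD contact against its distance from the promoter fragment in kb (x axis, upstream below 0), with 1 symbol per replicate and grey bars joining the 3 replicates where all called it. The scores form a group at 472 to 503 kb and another at 391 to 433 kb upstream, and the few downstream contacts scored under 10.

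Downstream of the MYOCD promoter 5 contacts were listed, of which 2 were called in all 3 replicates. Fragment chr17:12643031-12647566, which overlaps an exon of MYOCD 73.1 kb from the promoter, scored 6.46, 5.92 and 5.82, 6.07 ± 0.344 (SD, n = 3). Fragment chr17:12901255-12908342 holds a transcript start of ELAC2, which encodes an RNA nuclease that trims tRNA ends, and scored 7.72, 7.53 and 8.6, 7.95 ± 0.571. The replicates lay close together in both. The promoter fragment of ZNF18, a zinc finger gene on the far side of MAP2K4 named here after its values were seen, was called in replicates 2 and 3 with 13.28 and 9.3, at 672 kb upstream.

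Promoters on the other side of MYOCD were called with the same upstream DNA. The ELAC2 promoter fragment chr17:12917917-12926654, 350 kb downstream of that of MYOCD, shared 20 interacting fragments with it, which is 54.1% of the 37 of MYOCD and 71.4% of the 28 of ELAC2, and 9 were called in all 3 replicates for both. The promoter fragment of MYOCD-AS1, an antisense RNA gene inside MYOCD, shared 18, which is 48.6% of those of MYOCD and 100% of its own. Both called the MYOCD contact of highest mean score in all 3 replicates. ELAC2 scored 16.52, 18.13 and 17.72 there at a distance of 838 kb, 17.5 ± 0.837 (SD, n = 3), and MYOCD-AS1 scored 14.22, 12.64 and 11.23 at 527 kb, 12.7 ± 1.50. The scores of these 3 promoter fragments did not overlap, with MYOCD highest, then ELAC2, then MYOCD-AS1. The fragment was picked by its MYOCD scores, which favours MYOCD in this order. The distances also differed, with 488 kb for MYOCD, and the order was not tested. Of the shared fragments, 11 for ELAC2 and 9 for MYOCD-AS1 lay in the farther block, and 5 and 7 in the nearer one.

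MEF2C, whose product is needed for heart formation, had contacts that lay at 808 kb or more from its promoter in the 3 replicates. Its promoter fragment, chr5:88175844-88186570 (10727 bp, gene on the − strand), holds 23 of its 57 annotated starts and a start of the antisense RNA MEF2C-AS1. There were 15, 13 and 20 contacts in replicates 1, 2 and 3, 16.0 ± 3.61 (SD, n = 3), and 28 were listed in any. 6 of the 28 were called in all 3, 21.4% (Wilson interval 10.2% to 39.5%), an interval that holds the 24% of all contacts. 27 lay upstream and none downstream on the same chromosome, and the remaining 1 was on chromosome 4 in replicate 1 alone. The merged calls added 1 downstream contact, at 154 kb inside the gene, with a score of 5.38. The upstream contacts spanned 808 to 1521 kb, with a median of 1299 kb. Of the 28 contacts, 20 spanned more than 1 Mb, beside 81118 of all 200587 contacts.

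The MEF2C contacts lay in groups in the DNA between MEF2C and CETN3, which encodes centrin 3, a protein of the centrosome. The largest block, chr5:89467129-89484917 (17.8 kb, 7 fragments, 2 of them in all 3 replicates), lay in introns of the non-coding RNA gene LINC01339. It held the highest mean score. Fragment chr5:89480919-89483799 scored 11.47, 12.66 and 13.21, 12.4 ± 0.889 (SD, n = 3), and the adjoining chr5:89479342-89480918 scored 6.8, 15.19 and 8.63, 10.2 ± 4.41. The replicates of the latter spread over those of the former, and the difference was 2.24 ± 4.13, positive in 2 of 3 replicates (exact sign-flip permutation test, two-sided p = 0.5).

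4 further MEF2C contacts were called in all 3 replicates. Fragment chr5:89681889-89682397 scored 9.01, 12.16 and 7.19, and chr5:89548220-89561500 scored 10.42, 12.77 and 5.07. Fragment chr5:89574061-89576066 scored 8.72, 9.7 and 5.17. Replicate 2 was highest and replicate 3 lowest in these. Fragment chr5:89024769-89025505, 844 kb from the promoter, scored 7.47, 6.53 and 9.53, the reverse order of replicates 2 and 3. The CETN3 promoter itself was called only in replicate 2, with a score of 6.77.

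**Figure D3:**
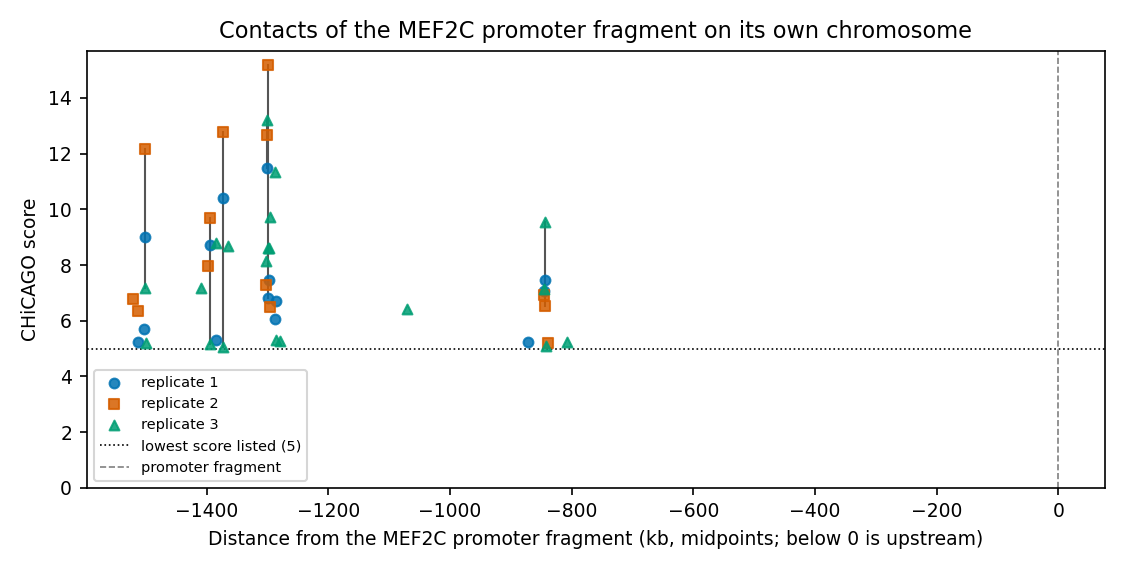
CHiCAGO score (y axis) of every MEF2C contact on chromosome 5 against its distance from the promoter fragment in kb (x axis, upstream below 0), with 1 symbol per replicate and grey bars joining the 3 replicates where all called it. No contact of the 3 replicates lay nearer than 808 kb, and the highest score, 15.19, was in the group near 1299 kb upstream.

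Starts of MEF2C outside its promoter fragment were called from the promoters at the far end of that stretch. Fragment chr5:88026646-88027805, with a start near the 3′ end of MEF2C, scored 17.23, 14.4 and 17.04 with the CETN3 promoter fragment at 1675 kb. With the promoter fragment shared by LYSMD3 and ADGRV1, named after their values were seen, it scored 11.42, 14.47 and 6.4 at 1797 kb. The neighbouring chr5:88024944-88026645 scored 17.24, 10.64 and 11.38 with CETN3 and 11.43, 13.57 and 15.13 with LYSMD3 and ADGRV1. The 2 partners overlapped in score at both fragments. 20 starts of MEF2C lay on fragments that were not listed. The promoter fragment that shared most interacting fragments with MEF2C, chr5:87987410-87991487, holds starts of the long non-coding RNA genes ENSG00000250377 and ENSG00000250555. It shared 11, which is 39.3% of the 28 of MEF2C and 18.0% of its own 61. No other promoter fragment shared more than 1.

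SMYD1 was called mainly with other promoters. Its promoter fragment, chr2:88362010-88368604 (6595 bp, gene on the + strand), holds 3 of its 4 annotated starts and a start of the neighbouring gene KRCC1, so that contacts of the SMYD1 and KRCC1 starts cannot be told apart. It had 5, 8 and 8 contacts in replicates 1, 2 and 3, 7.00 ± 1.73 (SD, n = 3). 12 were listed in any replicate and 3 in all 3, 25% (Wilson interval 8.89% to 53.2%), close to the 24% of all contacts. 10 of the 12 partners were themselves promoter fragments. The numbers were 1 of 37 for MYOCD, 1 of 28 for MEF2C, 3 of 11 for MEF2D, 1 of 2 for SRF and 0 of 4 for HOPX. The share over all contacts was not counted, so how unusual 10 of 12 is cannot be said.

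All 3 recurrent partners of SMYD1 were promoters within 103 kb. The THNSL2 fragment, chr2:88464032-88472383 at 103 kb, scored 33.5, 34.93 and 58.36, 42.3 ± 14.0 (SD, n = 3), higher than the highest mean score of 98.6% of promoter fragments with a contact in all 3. THNSL2 encodes a protein similar to bacterial threonine synthase. The fragment of FABP1, the fatty acid-binding protein of the liver, chr2:88422706-88430034 at 61.1 kb, scored 13.77, 13.67 and 20.58, 16.0 ± 3.96. The nearer KRCC1 fragment, chr2:88354752-88358194 at 8.83 kb, scored 10.04, 11.04 and 13.47, 11.5 ± 1.76. Replicate 3 was the highest in all 3. THNSL2 scored above FABP1 in 3 of 3 replicates, by 26.3 ± 10.0 (exact sign-flip permutation test, two-sided p = 0.25, the smallest possible).

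3 further SMYD1 partners, named after their values were seen, were called in 2 replicates each. The ENSG00000225420 fragment scored 11.33 and 8.42 in replicates 1 and 2 at 475 kb, RNU6-1007P scored 9.16 and 9.37 in replicates 2 and 3 at 346 kb, and TEX37 scored 6.34 and 7.35 in the same replicates at 461 kb. The promoter fragments that shared most interacting fragments with SMYD1 were that of MRPL45P1 and RNU6-568P, which shared all 7 of its own with the 12 of SMYD1 (58.3%), and that of a snoU13 copy at chr2:88309578-88311570, which shared 6 of its 7 (85.7%) and 50% of those of SMYD1, including the 3 recurrent ones for both.

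MEF2D had 11 contacts in any replicate, beside a median of 6 over all promoter fragments. Of these, 1 was called in all 3 replicates, which is also the median. Its promoter fragment, chr1:156467805-156490786 (22982 bp, gene on the − strand), holds 3 of its 6 starts and starts of 3 unnamed genes. Replicates 1, 2 and 3 listed 5, 3 and 6 contacts, 4.67 ± 1.53 (SD, n = 3), and 11 were listed in any, or 7 without replicate 3. The recurrent contact was the promoter fragment of NAXE, an enzyme that repairs damaged NADH and NADPH, chr1:156557122-156562660 at 80.6 kb, which also holds a start of AL365181.1. It scored 7.04, 6.2 and 9.51, 7.58 ± 1.72, and 26.3% of promoter fragments with a contact in all 3 had a lower highest mean score. 1 in 11 (9.09%) has a Wilson interval of 1.62% to 37.7%, which holds the 24% of all contacts.

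The NAXE promoter was also called with starts inside MEF2D. Fragment chr1:156453608-156465120, which holds 1 MEF2D start, scored 7.25, 11.78 and 10.46 with it, and chr1:156443797-156453607, which holds 2, scored 9.05, 8.94 and 8.42. The former also scored 6.48, 6.2 and 5.33 with the promoter of IQGAP3, a scaffold protein of the cytoskeleton that was named after its values were seen. The former was called with the MEF2D promoter fragment itself in replicates 1 and 3, with 5.06 and 6.09. NAXE shared 5 interacting fragments with MEF2D, which is 45.5% of the 11 of MEF2D and 9.80% of its own 51. A snoU13 copy at chr1:156498077-156505404 shared 4, which is 36.4% of those of MEF2D and 20% of its own 20.

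**Figure D4:**
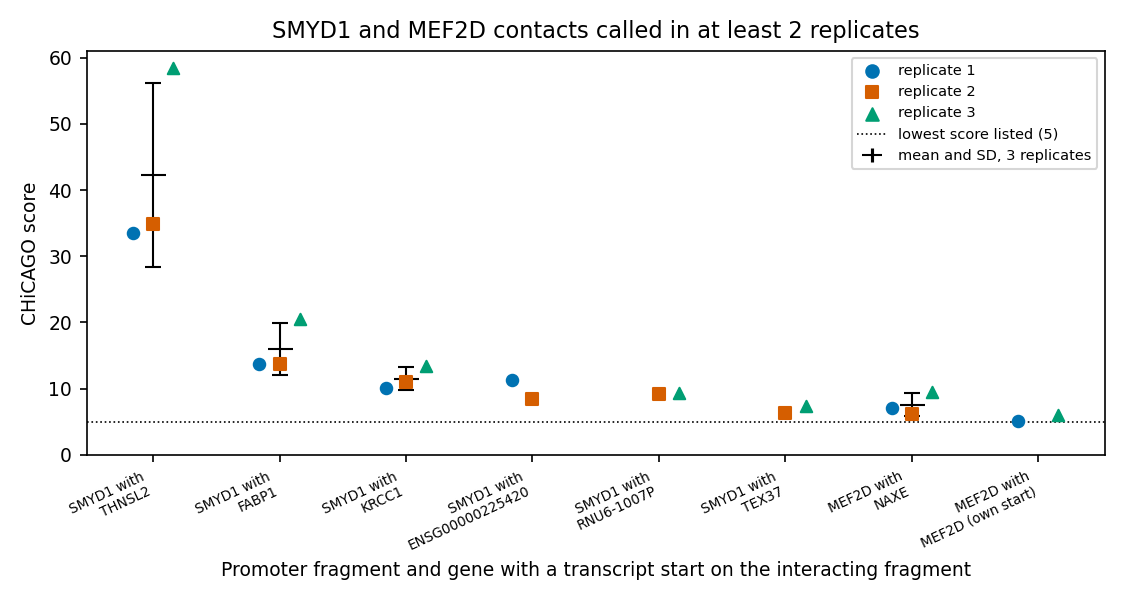
CHiCAGO score (y axis) in each replicate of the SMYD1 and MEF2D contacts that at least 2 replicates called (x axis, by a gene with a transcript start on the interacting fragment), with mean and SD where all 3 called it. THNSL2 scored 33.5 to 58.36, above every other contact shown, and NAXE was the MEF2D contact called in all 3.

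SRF and HOPX had no contact in more than 1 replicate. The SRF promoter fragment, chr6:43136732-43143383 (6652 bp), holds its only annotated start and the CArG boxes printed above. Replicates 1, 2 and 3 listed 2, 0 and 0 contacts. Both were in replicate 1, with 6.25 for the promoter fragment of LRRC73, POLR1C and YIPF3 at 339 kb and 5.14 for chr1:73033425-73033952 on another chromosome. With 0 of 2 in all 3 replicates, the Wilson interval reaches 65.8%, so the contacts are too few to set against the 24% of all contacts. The 2 promoter fragments that shared an interacting fragment with SRF, those of RRP36 and ERICH3, shared 1 each.

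The HOPX promoter fragment, chr4:57547727-57553136 (5410 bp, gene on the − strand), holds 3 of its 15 starts. Its contacts numbered 1, 0 and 3 in replicates 1, 2 and 3, all different, with scores of 5.54 to 6.67 and at 2691 to 38868 kb. Without replicate 3, 1 was left. The highest, 6.67 in replicate 3, lay in an intron of UNC5C, a receptor for the guidance protein netrin. 0 of 4 in all 3 has a Wilson interval of up to 49.0%. 5 further HOPX starts lay on the adjoining fragment chr4:57547283-57547726, which was listed only as an interacting end, and 7 on fragments that were not listed, so that these values cover a part of the HOPX starts. The promoter fragment of AFF1, ENSG00000284968 and ENSG00000285458 shared 1 interacting fragment with it, and no other did.

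MEF2A was read from its surroundings. 17 of its 18 starts lay on chr15:100103292-100109469 and 1 on chr15:100242535-100247005. 1 promoter fragment was called with them in all 3 replicates, chr15:99996534-100018042, which lies upstream of MEF2A and holds the start of the long non-coding RNA gene ENSG00000286893. It was chosen after its calls were seen, and the study lists it under the name MEF2A. It was called with the fragment of the 17 starts at 99.1 kb with 6.16, 5.24 and 8.62, 6.67 ± 1.75 (SD, n = 3), and with that of the other start at 237 kb with 5.04, 5.05 and 6.78. All of these scores were low, and replicate 3 was the highest in both.

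This upstream fragment had 27, 24 and 37 contacts in replicates 1, 2 and 3, 29.3 ± 6.81 (SD, n = 3). 48 were listed in any replicate and 14 in all 3, 29.2% (Wilson interval 18.2% to 43.2%), an interval that holds 24%. 39 of the 48 lay on the side of MEF2A, all within 264 kb. The largest block, chr15:100187437-100269324 (81.9 kb, 15 fragments, 8 of them in all 3), ran from introns of MEF2A into LYSMD4, the next gene. Its highest contact, chr15:100241771-100242534 in an intron of MEF2A, scored 12.3, 10.71 and 10.2, 11.1 ± 1.10, and the next, chr15:100221521-100223361, scored 9.13, 7.36 and 13.08, 9.86 ± 2.93. They overlapped, with a difference of 1.21 ± 3.55, positive in 2 of 3 replicates (exact sign-flip permutation test, two-sided p = 0.5). The LYSMD4 promoter fragments at chr15:100257875-100263888 and chr15:100272601-100277046 each shared 7 interacting fragments with it, which is 14.6% of its 48.

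**Figure D5:**
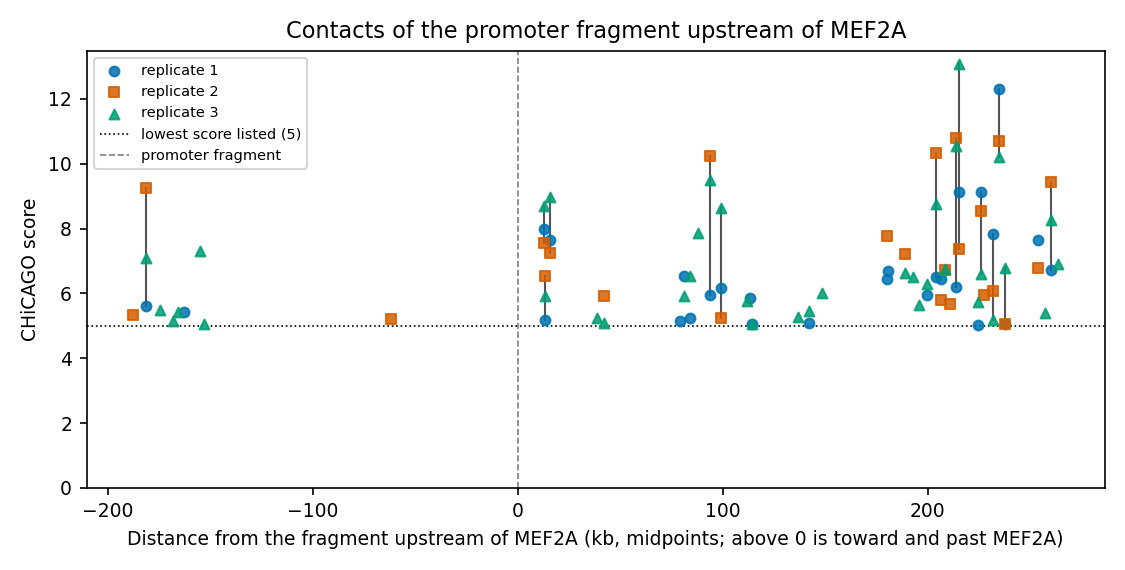
CHiCAGO score (y axis) of every contact of the promoter fragment upstream of MEF2A against distance in kb (x axis, toward and past MEF2A above 0), with 1 symbol per replicate and grey bars joining the 3 replicates where all called it. The 39 contacts above 0 scored at most 13.08, and 8 of the 14 recurrent contacts lay at 180 to 260 kb.

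Other genes of the pathway were counted in 2 lists, one of partners and cofactors of MEF2 and SRF and one of genes known as their targets. A gene whose captured promoter had no call counts here as having no promoter fragment. Of 13 cofactor genes, 12 had a promoter fragment and contacts, with a median of 11 over the list, and 8 had at least 1 in all 3 replicates, beside 51.9% of all promoter fragments. MRTFA, a coactivator of SRF related to myocardin, and HDAC9, a deacetylase that binds MEF2, had the most in all 3, with 5 each. Their contacts in any replicate numbered 16 from 2 promoter fragments for MRTFA and 14 for HDAC9. Of 10 target genes, 9 had a promoter fragment and contacts and 5 of these 9 had at least 1 in all 3, beside the same 51.9%. ACTC1, which encodes cardiac alpha-actin, had 37 contacts and 19 in all 3, and the immediate early gene FOS had 12 and 5. No gene of either list had more contacts in all 3 replicates than the 22 of MYOCD. This order is one of counts and not of scores. HDAC5, named after its value was seen, had 1 contact in all 3, with a mean score of 135, above the 43.2 of MYOCD.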

How the data were processed

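The CHiCAGO scores were used as the authors deposited them, in 1 set per replicate and 1 called on the merged replicates. The authors mapped reads with HiCUP (GRCh37) and scored pairs of fragments with CHiCAGO, left at its defaults (versions are not given in the sources used here). Scores start at 5, and read depth was not analysed here. All 149 of 149 fragments described had HindIII sites at both ends in GRCh37. Transcript starts came from GENCODE v44 in its GRCh37 version, and sequences from GRCh37 and RefSeq.

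Contacts called in any replicate were pooled for the counts, with a pair counted once whichever end came first, at its higher score where both orders were listed. Shares carry 95% Wilson intervals, which cover counting error only. Each sign-flip test compared the 2 contacts with the highest mean scores in the same 3 replicates, so the sign of the mean difference was set by that choice. Members and gene lists were chosen with earlier results of these data known. Named genes were the members, those at or beside each highest recurrent contact, those on promoters called in all 3 replicates, the 2 promoters sharing most contacts, and the 2 of each list with most recurrent contacts. Alternatives were minimum scores of 7 and 10, each replicate left out, merged calls, protein-coding starts, the member as captured end only, contacts within 1 Mb, matching within 5 kb, other block gaps and other annotation. Adding the fragment upstream of MEF2A and leaving out MYOCD were chosen after seeing the data. Counting was tested on simulated data. Python 3.11.15, scipy 1.17.1, pysam 0.24.0 and matplotlib 3.10.9 were used.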

Additional observations from a re-analysis of the deposited data

Results flagged for a closer look

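Calls made on the merged replicates, which the counts above do not use, held contacts that no single replicate listed. MYOCD had 19 of these, with scores of 5.01 to 6.99 and at 45.6 to 534 kb from its promoter fragment. MEF2C had 3. Of these, chr5:88026646-88027805, inside MEF2C and 154 kb downstream of the promoter fragment, scored 5.38, and the others scored 5.5 at 836 kb and 5.02 at 1367 kb upstream. MEF2D had 1, which scored 5.53 at 15.2 kb. The data hold no control sample, and these scores have no replicate spread.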

How the results depend on the processing

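The 94 contacts fell to 46 at scores of at least 7 and 28 at scores of at least 10, to 57 without MYOCD, and rose to 142 with the fragment upstream of MEF2A. The share called in all replicates was 47.8% at scores of at least 7, 57.1% at scores of at least 10, 57.4% with a fragment within 5 kb taken as a match, 17.5% without MYOCD, and 46.1% to 50% with 1 replicate left out and the other 2 required. For the minimum scores, the 5 kb match and the left-out replicates, the share over all contacts was not computed. Those shares therefore cannot be set beside the 24% of all contacts. The median distance was 417 kb for contacts within 1 Mb and also for the merged calls, 336 kb with the fragment upstream of MEF2A and 1279 kb without MYOCD. Merged scores of the highest recurrent contacts were 17.9 for MEF2C, 10.4 for MEF2D and 34.0 for MYOCD. Blocks, lone fragments included, numbered 17, and 35 with contacts of at least 1 replicate. 13 of the pathway genes had a contact in all 3 replicates, and 5 at scores of at least 10. The share of contacts in no gene was 68.8% for those in all 3 replicates, 70.2% counting protein-coding genes only and 29.8% without MYOCD. Of 54 counts for single genes, 32 stayed within 1.5 times, and SRF and HOPX had none at scores of at least 7 or in the merged calls. No paired comparison of groups was possible because there was 1 group, and the sign-flip tests paired the scores of 2 contacts within each replicate. The unlisted scores under 5 limit every count.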
